A study of Homo sapiens with 4 samples.

Results

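Molecular chaperones are the subject here: the genes of heat shock proteins, of their DNAJ co-chaperones, of the BAG co-chaperones and of the CCT chaperonin that carried m7G peaks in HepG2 cells. Members were taken by gene name from the authors' 2 peak lists, as names that begin with HSP followed by a letter from A to H or a digit, DNAJA, DNAJB or DNAJC with a number, BAG1 to BAG6, or CCT2 to CCT8. They made up 13 of the 3355 peaks of IP replicate 1 (0.387%) and 23 of the 4747 peaks of IP replicate 2 (0.485%), in 13 genes and 20 genes. Together these were 22 of the 3769 gene names with a peak in either list. HepG2 is a human hepatocellular carcinoma line, grown here without treatment, so there is 1 condition and no control arm. Its poly(A) RNA was sequenced after immunoprecipitation with an antibody against N7-methylguanosine (IP, 2 samples) and as input (2 samples, not analysed here). Each list holds the peaks of 1 IP sample, that is, stretches of mRNA called as enriched, with a p-value and a fold enrichment per peak. No read numbers come with the lists. Separate cultures for both IP samples are not stated in the labels, so the spread between them may be technical. Of 12 hepatocyte marker genes, 6 had a peak in both lists, among them APOA1 and SERPINA1, while ALB, AFP and HNF4A had none; a list of peaks does not measure expression, so these counts do not check the label of the cells. Of 8 genes that mark other cells, ACTA2, LYZ and CD68 had peaks in both lists.

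Chaperones bind unfolded protein chains and keep them from aggregating. HSP70 proteins work in cycles of ATP hydrolysis that J-proteins (the DNAJ families) start and nucleotide exchange factors such as BAG proteins end, HSP90 acts on partly folded clients, and the CCT ring folds actin and tubulin. The endoplasmic reticulum (ER) has its own set, led by the HSP70 protein BiP (HSPA5) and the HSP90 protein GRP94 (HSP90B1), which serves secreted proteins, an abundant product of liver cells. Cytosolic genes are classically induced by heat shock factor 1 and ER genes by the unfolded protein response. N7-methylguanosine is the base of the mRNA 5′ cap and also occurs inside mRNAs; the lists do not tell the 2 apart.

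The rule also caught names that are no chaperones. HSPG2 encodes perlecan, a proteoglycan of basement membranes, and HSPE1-MOB4 is a readthrough of HSPE1 whose peak is the HSPE1 peak again. Compartments were assigned from general knowledge: 11 of the 22 names encode proteins of the cytosol or nucleus, 6 of the ER, 1 of mitochondria and 4 others. Of the 91 protein-coding genes in the RefSeq table that match the rule, 22 had a peak (24.2%), compared with 17.9% of all protein-coding genes. By compartment these were 11 of 55 cytosolic genes (20.0%) and 6 of 14 ER genes (42.9%), and 1 of 8 mitochondrial genes. Within the ER, 5 of 7 genes of lumenal proteins but 1 of 7 genes of membrane proteins had a peak.

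The promoters of both groups were set side by side first. The name rule read no promoter sequence. Names that begin with HSP stand for heat shock proteins, however, so the heat shock element is not independent of the choice of members. In the RefSeq windows (GRCh38.p14, 250 bases before to 50 after each annotated start), the heat shock element, the site of heat shock factor 1, was searched as GAA and TTC, in either order, with 2 bases of any kind between them. Each order reads the same on both strands, and matches of both orders can overlap. The ER stress element was searched as CCAAT followed by CCACG with 9 bases of any kind between them, on both strands. The sequences below are 30 bases each, read 5′ to 3′ on the gene's strand, with the matches in capitals. They are shown because the matches in cytosolic members and those in ER members were of different elements, though not every member held one. The first 5 come from cytosolic members and the last 3 from ER members.
HSPA1A, 106 to 99 nt upstream of the start, + strand, chr6:31815426-31815455: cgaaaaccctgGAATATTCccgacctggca
HSP90AB1, 165 to 153 nt upstream, + strand, chr6:44247770-44247799: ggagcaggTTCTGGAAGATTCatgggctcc
HSP90AB1, 112 to 100 nt upstream, + strand, chr6:44247823-44247852: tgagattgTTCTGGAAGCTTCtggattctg
HSPB1, 182 to 175 nt upstream, + strand, chr7:76302480-76302509: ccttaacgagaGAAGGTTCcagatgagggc
DNAJB6, 131 to 119 nt upstream, + strand, chr7:157336865-157336894: agagccgaGAACCTTCGCGAAggtggggcg
HSPA5, 66 to 48 nt upstream, - strand, chr9:125241385-125241414: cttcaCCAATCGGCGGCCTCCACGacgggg
HSP90B1, 194 to 176 nt upstream, + strand, chr12:103930211-103930240: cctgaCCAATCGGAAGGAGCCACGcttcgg
HSP90B1, 89 to 71 nt upstream, + strand, chr12:103930316-103930345: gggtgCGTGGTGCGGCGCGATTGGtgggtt
The longer capitals in HSP90AB1 and DNAJB6 are 2 overlapping matches each, and the second HSP90B1 site is the element on the opposite strand. HSP90AB1 has 3 annotated starts, and its matches lie before the one at 44247943, downstream of the first base of the gene's span.

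Of the cytosolic members with a peak and a promoter window, 5 of 10 held a heat shock element and 0 held the ER stress element. Of the ER members, 0 of 5 held a heat shock element and 2 held the ER stress element. Over all 27305 genes with a window the shares were 16.2% and 0.0916%. With 5 ER genes, a count of 0 for the heat shock element is no contrast with 16.2%. The fifth cytosolic gene, CCT4, had its match downstream of the start. Among all annotated members, peaks or not, 23 of 49 cytosolic genes (46.9%) and 0 of 13 ER genes held a heat shock element, and 0 of 49 and 2 of 13 (15.4%) held the ER stress element. Genes with several starts have several windows and so more chances of a match. A match describes these letters only, and the promoters of members with and without peaks were not compared by a test.

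Of the HSP90 genes, HSP90AB1 and HSP90B1 had peaks in both lists and HSP90AA1, the stress-inducible cytosolic form, had none. HSP90AB1, the constitutive cytosolic HSP90, had a fold of 1.62 in replicate 1 and 1.29 in replicate 2, with -log10 p of 17.9 and 9.77. Both peaks lay near the 3′ end of the gene on chromosome 6, from 44253591 to 44253829 and from 44253650 to 44253799, with midpoints 173 and 158 nt from it. The fold was thus among the lowest of each list (percentiles 9.2 and 1.2) although the p-value was smaller than at 88.2% and 81.2% of peaks. HSP90B1, the HSP90 of the ER lumen, had folds of 2.65 and 7.59 and -log10 p of 20.8 and 37.6. Its peaks lay at the opposite end of the gene, with midpoints 73 and 58 nt from the 5′ end. Both joined the same 2 blocks across a gap of 956 nt on chromosome 12, with the first block ending at 103930564 and the second starting at 103931521. The replicate 2 peak began 76 nt upstream of the annotated start, within the downstream ER stress element match printed above, and the replicate 1 peak began 16 nt upstream. Its folds differed 2.86 times between the lists, the widest gap among the members with a shared peak.

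Of the 12 HSP70 genes, HSPA1A, HSPA5 and HSPA12B had peaks, beside 17.9% of all protein-coding genes. HSPA1A, the stress-inducible cytosolic HSP70 whose promoter match is printed first, had folds of 2.09 and 1.95 and -log10 p of 7.75 and 7.10. Its peaks started at the same base, 31817522 on chromosome 6, and ended at 31817672 and 31817702, 345 and 330 nt from the 3′ end at their midpoints. HSPA1B is a near-identical copy, so reads of both genes may enter this peak and its fold is uncertain in that respect. HSPA5, which encodes BiP, the main HSP70 of the ER lumen, had folds of 1.58 and 1.76. These folds were low (percentiles 8.1 and 8.7), but its -log10 p of 73.4 and 107 were the highest of all members and exceeded 97.8% and 99.3% of peaks. The peaks lay on chromosome 9 and shared their upstream edge at 125241357, 14 nt before the annotated start of this minus-strand gene; the replicate 1 peak ran on over a gap of 97 nt into a second block of 6 nt. HSPA12B, an atypical relative of HSP70, had a fold of 4.97 in replicate 2 and no peak in replicate 1. The constitutive cytosolic HSPA8 and the mitochondrial HSPA9 had no peak in either list, nor had the 3 HSP110 genes.

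**Figure D1:**
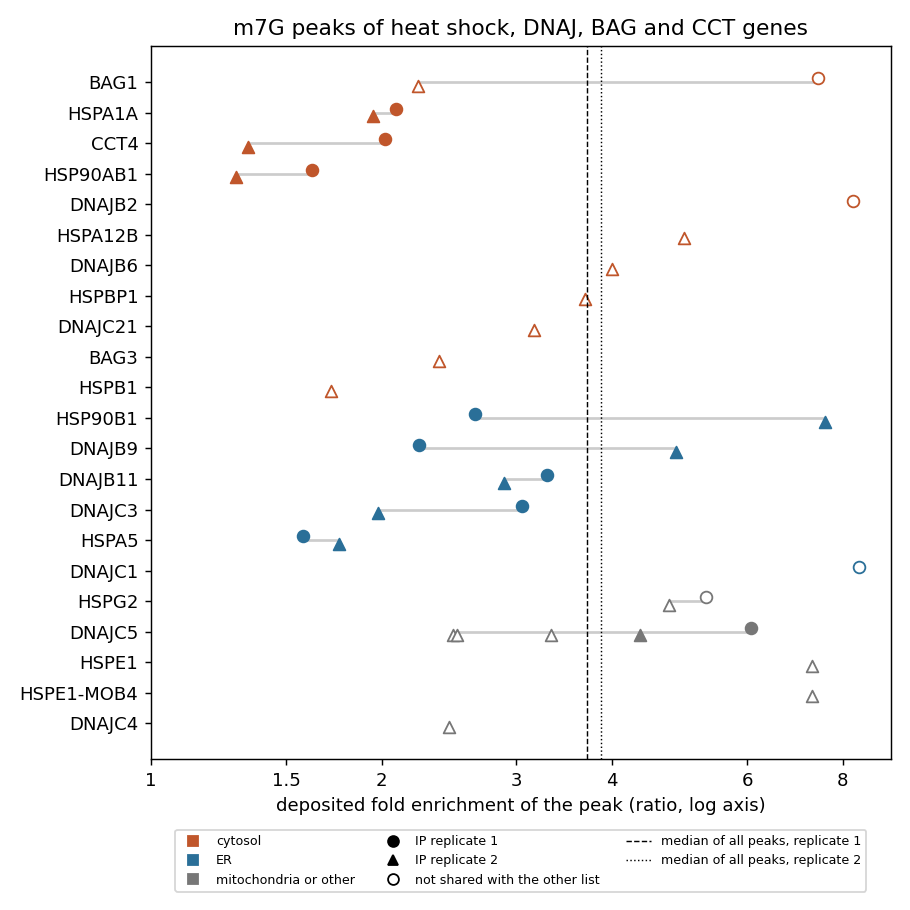
Deposited fold enrichment (log axis) of each member peak, by gene, with circles for IP replicate 1 and triangles for IP replicate 2; filled symbols mark peaks shared by at least 50% of the shorter peak, and vertical lines the medians of all peaks (3.71 and 3.87). Among genes with a shared peak, HSP90B1, DNAJB9 and DNAJC3 were the ER genes whose folds lay farthest apart, while HSPA1A, HSPA5 and DNAJB11 had close folds.

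J-proteins made up the largest family among the members. Of the 4 DNAJA genes none had a peak, against 4 of 12 DNAJB genes and 5 of 28 DNAJC genes. Over all protein-coding genes 17.9% had a peak, the families are small, and their counts were not compared by a test. Cytosolic J-proteins had peaks in a single list each. DNAJB2, a J-protein with ubiquitin-interacting motifs, had a fold of 8.24 in replicate 1 at 87 nt from the 5′ end. DNAJB6, which suppresses protein aggregation, had a fold of 4.0 in replicate 2, in a peak of 3 blocks that spanned gaps of 24183 and 6014 nt on chromosome 7. DNAJC21, a factor of ribosome assembly, had a fold of 3.16 in replicate 2 with its midpoint 259 nt from the 5′ end. The main heat-inducible cytosolic J-protein gene, DNAJB1, had no peak.

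Each gene of an ER-lumen J-protein with a peak had one in both lists. DNAJB11 (ERdj3), a lumenal partner of BiP, had folds of 3.29 and 2.89 and -log10 p of 24.6 and 24.0. Its peaks on chromosome 3 began at the same base, 186570706, which is 14 nt before the annotated start, and ended at 186570943 and 186570913. DNAJB9 (ERdj4), a BiP partner induced in the unfolded protein response, had folds of 2.24 and 4.84, with -log10 p of 3.44 and 9.10. The replicate 1 peak of DNAJB9 was 90 nt long and lay wholly within the replicate 2 peak of 180 nt, with midpoints 125 and 110 nt from the 5′ end. DNAJC3 (p58IPK), another lumenal co-chaperone, had folds of 3.05 and 1.98 and was the ER gene with peaks in both lists that lay away from the 5′ end. Its midpoints were 1254 and 1269 nt from the 3′ end of a gene span of 117850 nt. DNAJC1 (ERdj1), an ER membrane J-protein, had the highest fold of all members in replicate 1, 8.41, at 143 nt from the 5′ end, and no peak in replicate 2. The ER genes DNAJC10 and HSPA13 had no peak. Outside the 2 compartments, DNAJC5, the cysteine string protein of secretory vesicles, had 1 peak in replicate 1 (fold 6.07) and 4 in replicate 2 (folds 4.35, 3.33, 2.48 and 2.51). The peaks of DNAJC5 at the 5′ end, 81 and 111 nt from it, overlapped between the lists, and the other 3 lay between 1535 and 4001 nt from the 3′ end. DNAJC4, a membrane J-protein, had a fold of 2.45 in replicate 2.

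BAG proteins and HSPBP1 release nucleotide from HSP70. BAG1 had a fold of 7.42 in replicate 1, at 96 nt from the 5′ end, and 2.23 in replicate 2, at 394 nt. These BAG1 peaks did not overlap, so the gene was seen in both lists but the site was not; 7.42 is also the commonest fold of replicate 1, listed at 107 peaks. BAG3, a co-chaperone of selective autophagy, had a fold of 2.38 in replicate 2 at 1196 nt from the 3′ end. HSPBP1 had a fold of 3.69 in replicate 2, away from both ends. The remaining 4 BAG genes had no peak.

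Of the CCT chaperonin, CCT4 (subunit delta) was the one gene of 8 with a peak, and it had one in both lists, with folds of 2.02 and 1.34 and -log10 p of 13.3 and 8.09. The replicate 2 peak lay inside the replicate 1 peak on chromosome 2, and both midpoints were 163 nt from the 5′ end. HSPB1 (HSP27) was the one small heat shock gene of 7 with a peak, at a fold of 1.72 in replicate 2 and 144 nt from the 3′ end. With a peak in 17.9% of all protein-coding genes, 1 of 8 CCT and 1 of 7 small heat shock genes is no contrast. Of the mitochondrial chaperonin pair, HSPE1 (HSP10) had a peak in replicate 2 with a fold of 7.30 and HSPD1 (HSP60) had none. HSPE1 and HSPD1 face away from each other, and the HSPE1 peak, from 197500176 to 197500324 on chromosome 2, lay wholly upstream of the annotated HSPE1 start, ending 55 nt before it. It covered an annotated HSPD1 start on the other strand, 105 nt from that of HSPE1. The peak was 149 nt long with a GC content of 69.1%, against 57.5% over all promoter windows, and its middle 30 bases are shown because it is the one member peak that the RefSeq windows hold in full.
HSPE1 peak, middle, + strand, chr2:197500235-197500264: gcgcagggcccttggggcgaatcgcggtgc
Perlecan, HSPG2, had folds of 5.30 and 4.74 at sites that did not overlap, 228 and 1908 nt from the 3′ end at the midpoints.

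**Figure D2:**
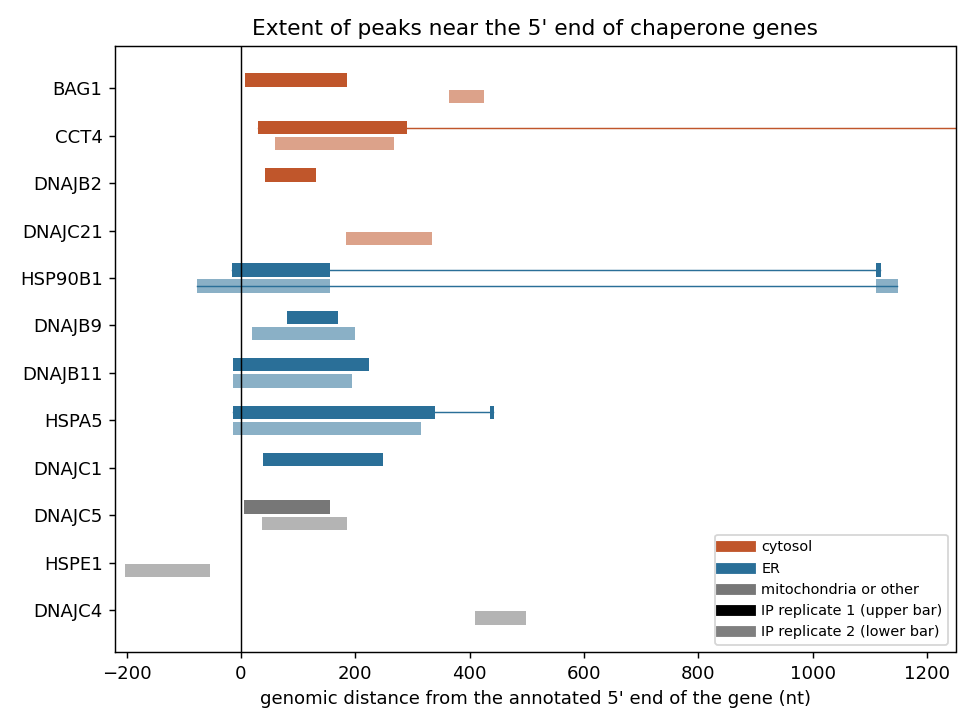
Extent of member peaks with a midpoint within 500 nt of the annotated 5′ end (vertical line at 0), in genomic nt, with replicate 1 above replicate 2 and thin lines for gaps between blocks; the second block of CCT4 in replicate 1, 7 nt after a gap of 3308 nt, lies beyond the axis, and HSPE1-MOB4, which repeats HSPE1, is left out. The ER genes HSP90B1, DNAJB9, DNAJB11 and HSPA5, the cytosolic CCT4 and DNAJC5 had overlapping bars from both lists near the start of the gene. The HSPE1 bar lay to the left of the start.

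Cytosolic and ER members were then compared as groups. Of the 11 cytosolic genes with a peak, 4 had peaks in both lists (36.4%, 95% Wilson interval 15.2 to 64.6%), against 5 of 6 ER genes (83.3%, 43.6 to 97.0%). All members gave 11 of 22 and all genes 51.7%, so the members as a whole lay near the share of all genes. Requiring the peaks to overlap by 50% of the shorter one left HSP90AB1, HSPA1A and CCT4 of the cytosolic genes (27.3%) and the same 5 ER genes, HSPA5, HSP90B1, DNAJB9, DNAJB11 and DNAJC3, against 45.3% of all genes. Counted as peaks, 9 of 13 member peaks of replicate 1 and 9 of 23 of replicate 2 were shared in this way, compared with 65.1% and 45.4% of all peaks. These 5 are all of the lumenal ER genes with a peak. The intervals of the cytosolic and ER shares overlap, they cover counting error only, and the difference was not tested, because genes are not replicates. The lists measure no expression, and whether the groups differ in mRNA level was not tested.

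The position of the peaks along their genes was compared next. A peak was counted at the 5′ end when its midpoint was within 200 nt of it or beyond it. Of the cytosolic peaks, 3 of 5 in replicate 1 (BAG1, CCT4 and DNAJB2) but 1 of 10 in replicate 2 (CCT4) met this. Of the ER peaks, 5 of 6 in replicate 1 and 4 of 5 in replicate 2 did, compared with 27.4% and 21.7% of all peaks. The groups were thus far apart in replicate 2 only, and the difference was not tested. The cytosolic share therefore differed more between the lists (35.0% ± 35.4, SD, n = 2) than the ER share (81.7% ± 2.36, SD, n = 2). All ER peaks of replicate 2 were at sites shared with replicate 1, so the small ER spread restates the overlap already counted. By gene, 1 of 11 cytosolic genes (CCT4) and 4 of 6 ER genes (HSPA5, HSP90B1, DNAJB9 and DNAJB11) had a 5′-end peak in both lists, against 15.4% of all genes. HSP90AB1 in both lists and HSPB1 in replicate 2 had midpoints within 200 nt of the 3′ end. No ER peak did, but such peaks are rare in both lists (3.52% and 3.46% of all peaks), so 0 of 6 and 0 of 5 is no contrast. Distances are genomic, and exons, UTRs and coding sequence were not placed.

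**Figure D3:**
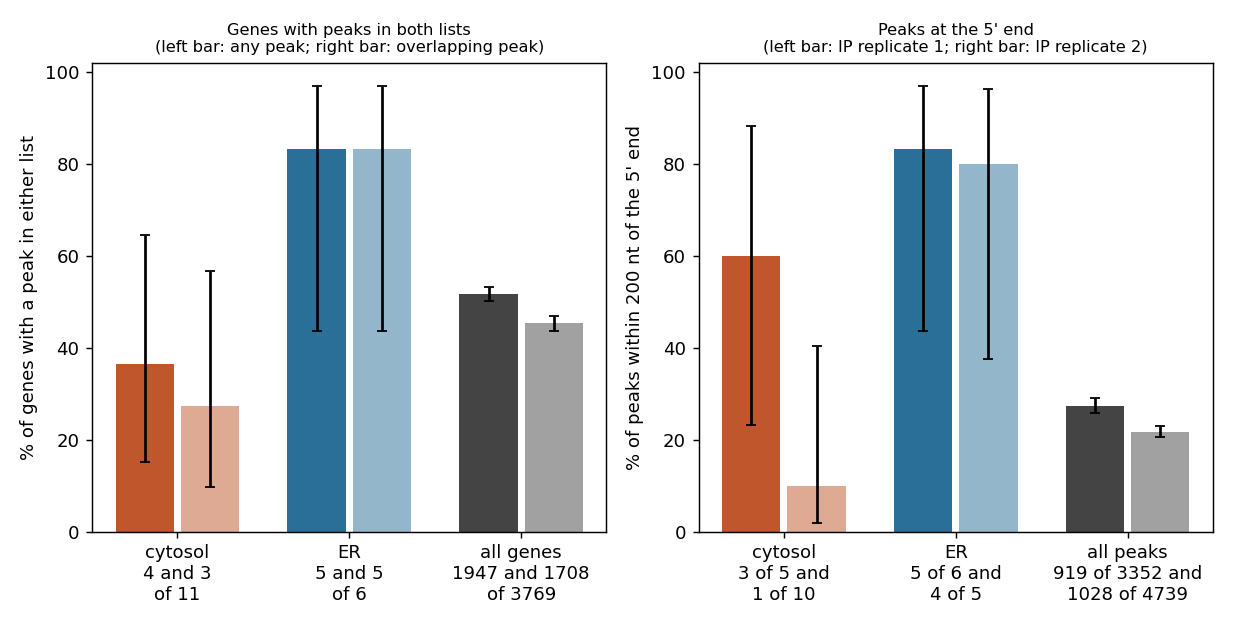
Left, percent of genes with a peak in either list that had any peak (left bar) or an overlapping peak (right bar) in both lists; right, percent of peaks at the 5′ end in replicate 1 (left bar) and replicate 2 (right bar), with counts under each group and 95% Wilson intervals as error bars. ER genes stood above cytosolic genes in every pair of bars, with wide and overlapping intervals, and the cytosolic 5′ share was 60.0% in one list and 10.0% in the other.

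The folds of the groups overlapped. The median fold of cytosolic peaks was 2.09 in replicate 1 and 2.30 in replicate 2, against 2.85 and 2.89 for ER peaks. In replicate 1 this order turned when CCT4, HSP90AB1 or HSPA1A was left out, with cytosolic medians of 4.76, 4.76 and 4.72. In replicate 2 the cytosolic median stayed at 2.23 or 2.38 whichever gene was left out. Both groups lay below the medians of all peaks, 3.71 and 3.87. Of all member peaks, 8 of 13 in replicate 1 (61.5%) and 15 of 23 in replicate 2 (65.2%) had a fold below the median of their list, against 47.9% and 49.8% of all peaks. The median -log10 p was 7.75 and 5.67 for cytosolic peaks and 15.7 and 24.0 for ER peaks, against 5.50 and 5.07 for all peaks. Counted by peak, 3 of 5 and 5 of 10 cytosolic peaks and 5 of 6 and 4 of 5 ER peaks had a p smaller than the median of their list. Over all members these were 8 of 13 and 13 of 23, where a median splits a list about evenly by construction. In the fold range, members ran from 1.29 (HSP90AB1) to 8.41 (DNAJC1), within lists that reach 66.8 and 122.

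**Figure D4:**
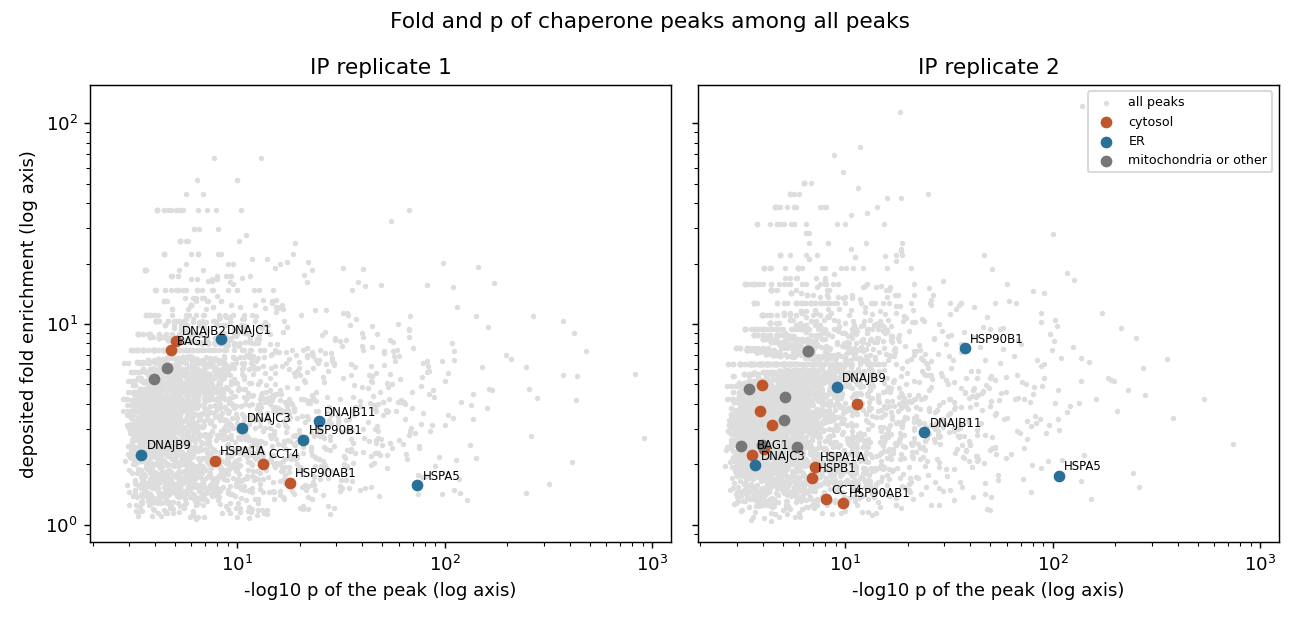
Deposited fold against -log10 p of each peak, both on log axes, for all peaks (grey) and for cytosolic, ER and other members, in IP replicate 1 (left) and IP replicate 2 (right). HSPA5 sits far to the right at a fold of 1.58 and 1.76, and HSP90AB1, CCT4 and HSPA1A sit low in both panels.

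At shared sites the folds of the 9 member pairs differed by a median of 1.40 times, against 1.25 times over all 2128 shared pairs. They were within 1.5 times for 5 of the 9 pairs (55.6%), compared with 72.6% of all pairs. CCT4 (1.51 times), DNAJC3 (1.54), DNAJB9 (2.16) and HSP90B1 (2.86) were outside. The fold was higher in replicate 1 for 6 of the 9 genes and higher in replicate 2 for HSPA5, HSP90B1 and DNAJB9. Counted along the exon blocks, all 18 edges of these pairs differed between the lists by 0 or by a multiple of 30 nt, within 1 nt, as did 96.5% of the edges of all pairs. The edges that moved at HSPA1A and DNAJB11 moved by 1 such step, so differences of this size between the lists lie at the resolution of nearly all edges. Spliced peaks made up 3 of 13 and 3 of 23 member peaks, against 26.4% and 28.2% of all peaks.

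Other genes of the chaperone system, from lists chosen for their function, were counted in the same way. These lists were drawn up with earlier results of these data known, so they are no independent check of the members. Over all genes, 17.9% of protein-coding genes had a peak, and of genes with a peak 51.7% had one in both lists and 45.3% at an overlapping site. Of 24 cytosolic co-chaperones and HSP90 partners, 8 had a peak and 6 had it in both lists, each at an overlapping site. These were the HSP70 to HSP90 adaptor STIP1 (folds 1.58 and 1.93), the kinase co-chaperone CDC37 (2.38 and 2.75 at its stronger site), FKBP4 (3.37 and 2.08), the p23 gene PTGES3 (1.83 and 1.97), the ubiquitin ligase STUB1 (4.24 and 5.14) and NUDC (1.80 and 1.73 at one of its sites). TCP1, the first subunit of the CCT ring, had no peak. Of 16 ER chaperones and folding enzymes, 14 had a peak and 13 had it in both lists, all at an overlapping site. Among them, HYOU1, the exchange factor of BiP, had 4 peaks in replicate 1 and 5 in replicate 2, with folds of 2.09 and 2.60 at the 5′ end. The lectin chaperone gene CALR shared its peak of smallest p (1.58 and 1.64), and the disulfide isomerase genes PDIA3 (1.82 and 3.56) and PDIA4 (1.66 and 1.52) shared 5′-end peaks. MANF, an ER stress protein, had folds of 2.85 and 2.46, and the oxidase gene ERO1A 4.60 and 5.48. CRELD2 had folds far apart at its overlapping site, 1.79 and 31.6, and SDF2L1 had 8.61 and 5.27. PDIA6 had folds of 3.31 and 2.7 and P4HB 1.49 and 1.7, each at the site of smallest p. The rest were ERP29 (1.51 and 1.59), ERP44 (2.06 and 1.48) and UGGT1 (3.49 and 3.54). A 5′-end peak in both lists was found for 2 of the 8 cytosolic partners with a peak (FKBP4 and STUB1) and 8 of the 14 ER genes with a peak, against 15.4% of all genes. These counts depend on the midpoint rule, and the difference was not tested. PTGES3 (204 and 189 nt) and the ER gene CRELD2 (250 and 160 nt) missed it in replicate 1 alone. CDC37 (7449 and 7464 nt) and the ER gene PDIA6 (18409 nt in both lists) were scored far from the 5′ end. Their peaks ran from 10395974 to 10403386 and from 10802580 to 10837561 in replicate 1. In both lists the upstream edges of these CDC37 and PDIA6 peaks lay within 200 nt of the annotated start. The midpoint rule thus left out peaks that reach the 5′ end, in both groups. SIL1 and CANX had no peak. The median fold was 1.83 and 2.09 for the cytosolic partners and 1.66 and 1.71 for the ER genes, both again below the medians of all peaks. Here the ER genes had the lower median in both lists, the opposite order to that of the members.

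HSF1, the heat shock factor itself, was the one gene of 4 in its list with a peak. It had 3 peaks in replicate 1 and 2 in replicate 2; those at the 5′ end had folds of 2.37 and 3.65, with -log10 p of 7.16 and 27.0. Of 8 partners of mitochondrial chaperones, 3 had a peak, and DNLZ, which helps the mitochondrial HSP70, had it at an overlapping site in both lists (6.18 and 7.12), whereas CLPB had peaks in both lists (5.44 and 5.35) that did not meet the overlap rule.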

How the data were processed

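The authors deposited 1 peak list per m7G IP sample; per the labels, libraries were stranded. The submitters' processing notes name STAR and GRCh38 with no stated role; the peak caller is not given in the sources used here. Per the file headers, each peak has a position, exon blocks, a p-value, log10 p and log10 FDR (used as scores) and a fold enrichment, a ratio whose compared libraries the authors do not name. The weakest deposited FDR had a -log10 of 1.32 in both lists. Folds and p-values are the authors' own and only describe peaks.

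Members and lists were chosen with earlier results of these data known. Every gene that the name rule matched and that had a peak was named. Peaks of the same gene and strand were called shared where their exon blocks overlapped by 50% or more of the shorter one; the matching was tested on simulated data. Gene spans, names and promoters are from RefSeq (GRCh38.p14). Midpoints were placed for 3352 peaks of replicate 1 and 4739 of replicate 2. No test across samples was possible with 1 condition. Sequence was read from the RefSeq promoter windows alone. Alternatives were other overlaps, the 50% with the smaller p, single lists, shared peaks, a window of 500 nt and narrower gene classes. Python 3.11.15, numpy 2.4.6, pandas 2.3.3 and matplotlib 3.10.9 were used.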

Additional observations from a re-analysis of the deposited data

How the results depend on the processing

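With 80% reciprocal overlap, 4 member genes were in both lists, with 1 cytosolic gene and 2 ER genes. A peak anywhere in the gene gave 11, 4 and 5, and overlap by 50% of the shorter peak gave 9, 3 and 5. At 80%, 4 member peaks of each replicate were shared instead of 9 at 50%. Fewer pass by construction. With the 50% of peaks of smaller p, 6 member genes were in both lists, 3 of them cytosolic and 3 of the ER, the median fold was 1.87 for cytosolic and 3.46 for ER peaks (means of the lists), and 90.0% of ER peaks were at the 5′ end. For the counts at these settings no share over all genes is given, so they do not compare members with other genes. Shared peaks alone gave median folds of 1.68 for cytosolic and 2.77 for ER peaks. Leaving out CCT4 gave a mean of 3.57 for cytosolic peaks against 2.20 with it. This mean joined 4.76 in replicate 1 and 2.38 in replicate 2, where the ER medians were 2.85 and 2.89. Lumenal genes alone gave 2.77 for the ER. The cause was not tested. Single lists gave medians of 2.09 to 2.30 for cytosolic and 2.85 to 2.89 for ER peaks. Their 5′ shares were 34.8 to 69.2% for all members, 10.0 to 60.0% for cytosolic and 80 to 83.3% for ER peaks. The 34.8%, from replicate 2, counts the site upstream of HSPE1 under both HSPE1 and HSPE1-MOB4. Leaving out nuclear or atypical cytosolic members, counting any base within 200 nt and leaving out each cytosolic gene in turn were chosen after seeing the data. No paired analysis was possible because values of the input samples were not analysed here. Without read numbers, a missing peak cannot be told from one too shallow to call.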
